A study of Mus musculus with 6 samples.

Results

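The fibrillar collagens of the dermis are described here in skin of db/db mice through 5 genes, Col1a1, Col1a2, Col3a1, Col5a1 and Col5a2, chosen by their gene symbols from the 48377 symbols of the count table. All 5 were counted in every library, and all 5 were among the 477 genes counted deeply enough to be tested. The db/db mouse lacks a working leptin receptor and serves as a model of diabetes with slow wound closure, and every library of the study came from it. The study asked how vemurafenib affects wound healing in diabetic mice, and poly(A) RNA of skin was sequenced in 2 groups of 3 libraries after 16 days of treatment. One group received vehicle, named DMSO in the sample titles, and the other vemurafenib (PLX4032), an inhibitor of mutant BRAF kinase, for which the labels give 1 uM. Age, sex and whether the skin came from a wound are not stated in the labels. The labels also do not tie libraries to animals. The p-values therefore set the group difference only against the spread between these libraries, part of which may be technical.

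Fibrillar collagens form the ropes that give the dermis its tensile strength. Type I collagen, the main one, is a triple helix of a pair of alpha 1 chains (Col1a1) and a single alpha 2 chain (Col1a2). Type III collagen is made of alpha 1 chains alone (Col3a1), and it is known to be laid down early in skin repair beside type I. Type V collagen (Col5a1 and Col5a2) is a minor component that starts fibril formation and limits fibril width, and human mutations in its genes cause classic Ehlers-Danlos syndrome. In each chain glycine recurs at a fixed spacing along the helix, so the coding sequences repeat glycine codons.

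That repeat makes the chains alike in sequence, and counts per chain rest on reads that can be told apart. The coding sequences were compared in GENCODE M21 on the mm10 build. The longest uninterrupted series of amino acid triplets that start with glycine held 338 triplets in Col1a1, 339 in Col1a2, 344 in Col3a1, 338 in Col5a1 and 339 in Col5a2. It covered 69.8% of the codons of Col1a1 and 55.2% of those of Col5a1, whose long amino-terminal part lies outside it. Even so, no run of 30 bases was shared on the same strand between any of the 10 pairs of coding sequences. The longest shared run was 25 bases, between Col1a1 (chr11:94944624-94944778, plus strand, across the junction of exons 27 and 28) and Col1a2 (chr6:4519838-4519892, plus strand, exon 17). Between the other 9 pairs it was 16 to 22 bases, and the genomic neighbours shared 21 bases: Col3a1 (chr1:45343973-45344462, plus strand, exons 44 and 45) and Col5a2 (chr1:45390172-45391104, minus strand, exons 41 and 42). These stretches show how near to each other the chains come, with the shared run in capitals and 15 bases on either side.
Col1a1: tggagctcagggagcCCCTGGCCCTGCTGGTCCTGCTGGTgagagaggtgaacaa
Col1a2: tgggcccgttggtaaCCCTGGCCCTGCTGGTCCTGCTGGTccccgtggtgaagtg
Col3a1: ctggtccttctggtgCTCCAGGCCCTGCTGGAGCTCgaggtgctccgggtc
Col5a2: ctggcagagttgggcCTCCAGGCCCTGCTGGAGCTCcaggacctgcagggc

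The start regions of the genes differ in base composition. RefSeq's table (GRCm38.p6) held 3 of the 5 members, and the 250 bases before the start are shown as the stretch before each start. Capitals mark matches on either strand to 3 common promoter motifs, and no matches overlapped. The CCAAT box was searched as its name spells it and was held by 33.8% of 32851 windows of the same length. The TATA box, searched as TATAAA, was held by 12.4% of these windows. The GC box, searched as GGGCGG, was held by 32.7% of them. The Col1a2 window (chr6:4505368-4505617, plus strand) lies inside the GENCODE span of the gene given below, because the RefSeq start is downstream of the GENCODE start. It had 1 CCAAT and 2 GGGCGG matches and 62% G and C. The Col3a1 window (chr1:45311288-45311537, plus strand) had 1 TATAAA match and 35.2% G and C. The Col5a1 window (chr2:27886175-27886424, plus strand) had 2 GGGCGG matches and 76.4% G and C, against a median of 52.4% over all windows. A match is a string of letters and no evidence of binding.
Col1a2: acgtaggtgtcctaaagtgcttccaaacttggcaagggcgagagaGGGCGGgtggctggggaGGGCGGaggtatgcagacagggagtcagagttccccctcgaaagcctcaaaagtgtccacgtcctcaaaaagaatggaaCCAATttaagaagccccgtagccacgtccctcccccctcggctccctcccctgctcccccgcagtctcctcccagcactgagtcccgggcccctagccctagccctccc
Col3a1: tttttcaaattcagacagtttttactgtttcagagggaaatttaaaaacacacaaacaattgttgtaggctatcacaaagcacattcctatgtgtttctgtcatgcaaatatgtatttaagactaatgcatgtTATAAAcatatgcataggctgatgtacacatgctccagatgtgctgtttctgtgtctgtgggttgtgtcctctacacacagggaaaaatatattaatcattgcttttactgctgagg
Col5a1: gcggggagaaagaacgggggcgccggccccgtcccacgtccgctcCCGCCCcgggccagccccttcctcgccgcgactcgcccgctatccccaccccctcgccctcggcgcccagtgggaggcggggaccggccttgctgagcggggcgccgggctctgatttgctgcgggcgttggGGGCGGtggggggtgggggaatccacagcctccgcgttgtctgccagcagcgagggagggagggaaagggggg

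The libraries were shallow and their contents unusual, which bears on every value below. The counted totals ran from 14189 to 78434 per library. A list of 12 housekeeping genes held 151 counts over all 6 libraries, between 0.0451% and 0.0962% of a library. Of 11 fibroblast markers 10 had a count, yet the list held 138 counts in all, between 0.0348% and 0.0738% of a library, and S100a4 had 0. Decorin (Dcn) and lumican (Lum), small proteoglycans that coat collagen fibrils, had 4 and 3 counts. The library kit is stranded, and the strand setting of the counting was not stated. Whether reads counted under a gene's name came from that gene's own strand cannot be told from the table and was not tested. Features on the strand opposite a gene were counted too, such as Gm13372 within Col5a1, with 157 counts. Shares, levels per length and ratios below therefore describe reads counted under a gene's name, which may not all be its mRNA.

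The collagens were nevertheless among the most counted genes. Col1a1 (chr11:94936224-94953042, plus strand), with 2950 counts over the 6 libraries, ranked 2 of all symbols, and Col3a1 (chr1:45311538-45349706, plus strand), with 2790, ranked 3. Col1a2 (chr6:4504814-4541544, plus strand) had 1457 counts and ranked 7, Col5a1 (chr2:27886425-28039514, plus strand) had 990 and ranked 8, and Col5a2 (chr1:45374321-45503282, minus strand) had 369 and ranked 25. Col3a1 and Col5a2 are neighbours that run towards each other, with 24614 bases between their ends. Exons of Col1a1, Col1a2, Col3a1 and Col5a2 overlap no exon of a gene on the other strand. Col5a1 does so over 212 bases, with 2810430I11Rik (chr2:27882925-27887052) and Gm13372 (chr2:28025417-28030437). Gm13372, which lies wholly within Col5a1, held 157 counts, or 228 counts per kb of its exons, against 117 per kb for Col5a1. For Col5a1, reads of these overlapping features could have been counted under another name.

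Levels between genes can be compared per length, here as CPM per kb of merged exon. On that scale the order of the means was Col1a1 (2001), Col3a1 (1346), Col5a1 (526), Col1a2 (508) and Col5a2 (160). Col1a1 lay above Col3a1, Col3a1 above Col5a1 and Col1a2 above Col5a2 in 6 of 6 libraries, whereas Col5a1 lay above Col1a2 in 3 of 6. The merged exons of Col1a2 span 12426 bases and its longest transcript 5348, and the order changed when that transcript gave the length. Per kb of longest transcript the means were 2375 for Col3a1, 2215 for Col1a1, 1181 for Col1a2, 531 for Col5a1 and 232 for Col5a2. Col3a1 then lay above Col1a1 in 4 of 6 libraries, so the order of these genes was not the same in every library. By these means type I and III chains stood above both type V chains on the second scale, and the rank of Col1a2 against Col5a1 depended on the scale. On both scales the ranges over the libraries overlapped for genes next to each other in the order, and levels between genes were not tested.

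Vemurafenib and vehicle libraries did not separate for any of the 5 collagen genes. Every fitted log2 fold change lay below 0, from -0.45 for Col1a2 to -1.01 for Col5a2, and none passed the test. Together the 5 genes took 3.18%, 4.47% and 6.33% of the counts in the libraries vehicle 1, 2 and 3. They took 3.23%, 4.15% and 1.84% in vemurafenib 1, 2 and 3. The highest and the lowest value, 3.45-fold apart, belonged to vehicle 3 and vemurafenib 3, and the other 4 libraries interleaved. No difference between the groups was shown, and in bulk tissue fibroblast number and collagen RNA per fibroblast cannot be told apart.

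**Figure D1:**
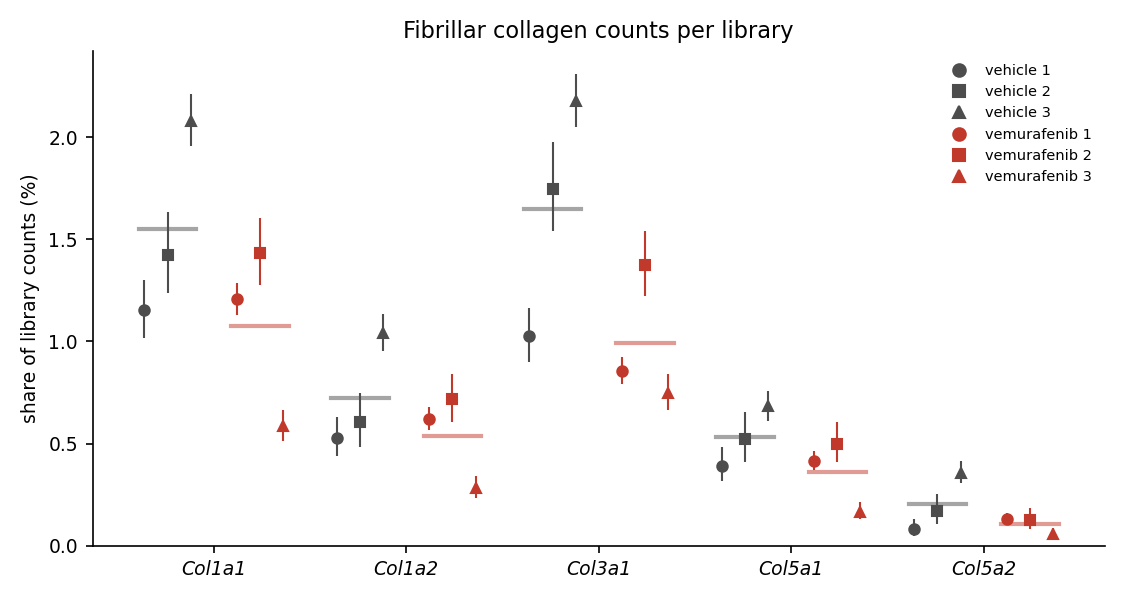
Share of each library's counts, in percent on a linear axis from 0, under each of the 5 collagen genes; points are libraries, vertical lines are exact 95% binomial intervals for counting error, and horizontal bars are group means. For every gene vehicle 3 was highest and vemurafenib 3 lowest, from 2.08% to 0.585% for Col1a1, and the groups overlapped.

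The alpha 1 chain of type I, Col1a1, made up 1.15%, 1.42% and 2.08% of the counts in vehicle 1, 2 and 3, against 1.21%, 1.43% and 0.585% in vemurafenib 1, 2 and 3. Vemurafenib 1 and 2 thus lay within the range of the vehicle libraries, and vemurafenib 3 lay below it. The group means were 1.55% ± 0.477 and 1.07% ± 0.439 (SD, n = 3; exact permutation test, two-sided, p = 0.5; the smallest p this design allows is 0.1). Its partner Col1a2 made up 0.526%, 0.606% and 1.04% with vehicle and 0.620%, 0.716% and 0.282% with vemurafenib. Vemurafenib 1 and 2 exceeded vehicle 1 and 2 for this chain. The means were 0.724% ± 0.276 and 0.539% ± 0.228 (SD, n = 3; exact permutation test, two-sided, p = 0.6).

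The type III chain Col3a1 made up 1.03%, 1.75% and 2.18% of the counts in vehicle 1, 2 and 3, against 0.857%, 1.38% and 0.747% in vemurafenib 1, 2 and 3. Of the 5 genes only this one had 2 vemurafenib libraries below all vehicle libraries. Vemurafenib 2 lay above vehicle 1, so the groups still overlapped. The means were 1.65% ± 0.581 and 0.993% ± 0.336 (SD, n = 3; exact permutation test, two-sided, p = 0.2).

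Of the type V chains, Col5a1 made up 0.392%, 0.522% and 0.682% with vehicle and 0.414%, 0.50% and 0.167% with vemurafenib. Its order over the libraries was like that of Col1a1 at the extremes, and its means were 0.532% ± 0.146 and 0.361% ± 0.173 (SD, n = 3; exact permutation test, two-sided, p = 0.4). Col5a2, the scarcest chain, made up 0.0827%, 0.169% and 0.357% with vehicle and 0.133%, 0.125% and 0.0575% with vemurafenib. It had the widest range of the 5, with vehicle 3 at 6.21 times vemurafenib 3, against 2.91 times for Col3a1. Its value in vehicle 1 rested on 19 counts (exact 95% binomial interval 0.0498% to 0.129%), while vehicle 3 held 174 (0.306% to 0.414%), so these did not overlap by counting error. The means were 0.203% ± 0.140 and 0.105% ± 0.0414 (SD, n = 3; exact permutation test, two-sided, p = 0.4). Adjusted over the 5 genes, each of these permutation p-values was 0.6.

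Fitted over all 477 genes with edgeR's quasi-likelihood test and Benjamini-Hochberg adjustment, the 5 genes gave no call. The share of all tested genes called was 0%, although 23 of them had an unadjusted p under 0.05 with edgeR, 14 with DESeq2 and 41 with limma-voom. Among the members, 0 of 5 reached an unadjusted p under 0.05 on the lower side with edgeR, where 2.31% of all genes did. The log2 fold change was -0.55 ± 0.49 (SE) for Col1a1, with a 95% interval from -1.56 to 0.46 (edgeR adjusted p = 0.966). Col1a2 had -0.45 ± 0.48, with an interval from -1.44 to 0.55 (edgeR adjusted p = 0.980). These intervals span more than a 2-fold fall and a rise, so neither kind of change in type I collagen can be excluded at this depth and replication. Col3a1 had -0.75 ± 0.49 (-1.75 to 0.25) and Col5a1 -0.58 ± 0.48 (-1.56 to 0.40), with edgeR adjusted p = 0.966 for both. Col5a2 had the largest fitted difference of the 5, -1.01 ± 0.50 (-2.05 to 0.03, edgeR adjusted p = 0.946, unadjusted p = 0.0572). The median over the 5 was -0.58, beside 0.02 over all tested genes, of which 48.2% lay below 0. The groups did not overlap for 8.81% of all tested genes and for 0 of the 5.

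The size of these differences varied with the libraries included. Without vehicle 3 the log2 fold changes became -0.19 for Col1a1, 0.0070 for Col1a2, -0.42 for Col3a1, -0.27 for Col5a1 and -0.15 for Col5a2. Without vemurafenib 3 they became -0.19, -0.076, -0.53, -0.18 and -0.65 in the same order. Thus 4 of 5 lay below 0 without vehicle 3 and 5 of 5 without vemurafenib 3. Leaving out both, an alternative added after the data were seen, gave 0.11, 0.31, -0.26, 0.075 and 0.15. Since these libraries were picked as the highest vehicle and the lowest vemurafenib library for every gene, leaving them out had to shrink or turn the differences, and nothing is read from it. In each of these fits 0 of the 5 were called.

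**Figure D2:**
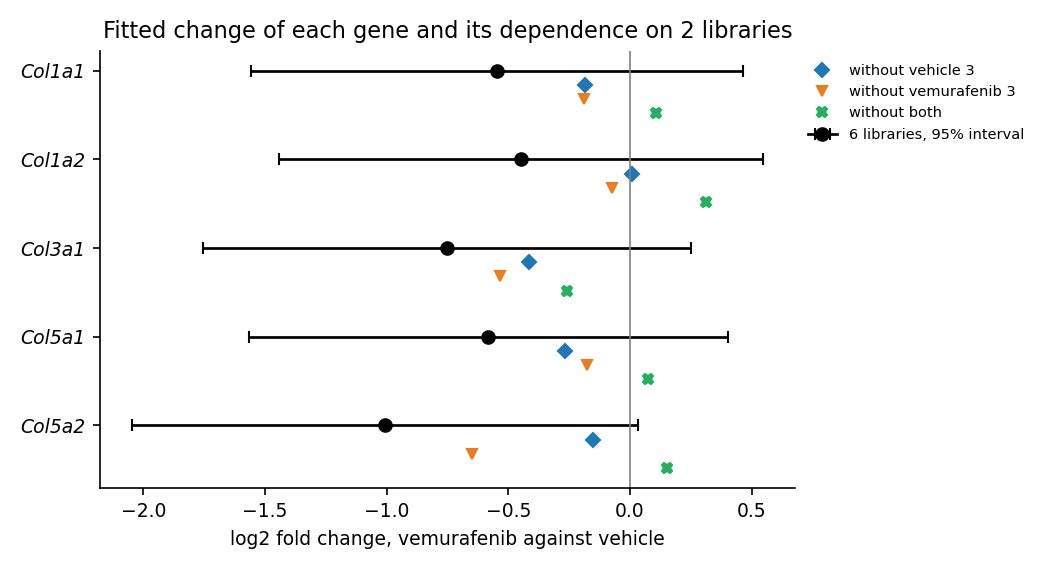
Log2 fold change of vemurafenib against vehicle for each collagen gene (black points, with 95% intervals from edgeR's quasi-likelihood fit over 6 libraries), and the same without vehicle 3, without vemurafenib 3 and without both. All 5 intervals include 0, and without both libraries the values run from -0.26 to 0.31.

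In 4 of the 6 libraries all 5 genes lay on the same side of their own means, and in the other 2 they did not. On the log2 scale, each gene's share was set against its own mean over the 6 libraries. All 5 lay above their means in vehicle 2 and vehicle 3, by 0.73 to 1.46 in the latter, and all 5 lay below in vehicle 1 and vemurafenib 3, by -0.72 to -1.30 in the latter. In vemurafenib 1 and vemurafenib 2 the signs were mixed, with 3 and 4 of the 5 above. Chains of 1 library share its total, its RNA and its cells, so the 5 genes are no separate replicates of this pattern.

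**Figure D3:**
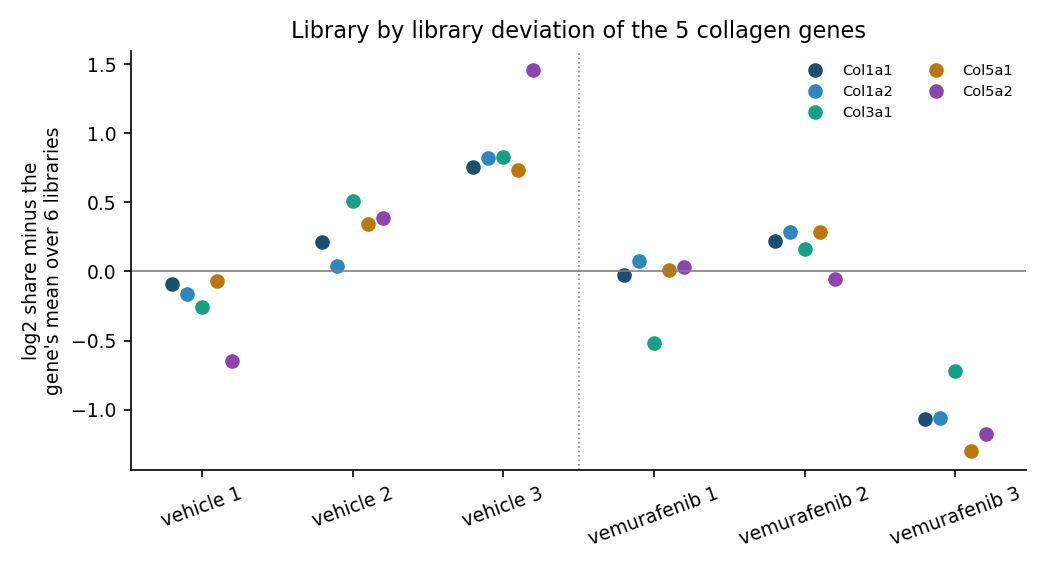
Deviation of each collagen gene's log2 share from its own mean over the 6 libraries, one column of points per library, with the groups divided by the dotted line. The 5 genes lie on the same side of 0 in 4 of the 6 libraries; Col5a2 stands highest in vehicle 3 (1.46) and Col3a1 lowest in vemurafenib 1 (-0.52).

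Ratios between chains within a library do not depend on its total, and how much they varied differed from pair to pair, from 1.21-fold to 2.48-fold between the lowest and the highest library. The ratio of Col1a1 to Col1a2 counts was 2.19, 2.35 and 2.00 in vehicle 1, 2 and 3, against 1.95, 2.00 and 2.07 in vemurafenib 1, 2 and 3. The highest lay 1.21 times above the lowest, while Col1a1 itself ranged over 3.56-fold. The groups overlapped, with means of 2.18 ± 0.174 and 2.01 ± 0.0641 (SD, n = 3) and a difference of -0.12 in mean log2 ratio (exact permutation test, two-sided, p = 0.2, adjusted over 10 pairs 0.875). Summed over the libraries, the ratio was 2.02 in counts, 1.83 per kb of longest transcript and 3.83 per kb of merged exon.

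The ratios of type I to type V alpha 1 chains had narrow ranges. Col1a1 to Col5a1 was 2.94, 2.73 and 3.05 with vehicle and 2.91, 2.87 and 3.50 with vemurafenib, a difference of 0.08 in mean log2 ratio (exact permutation test, two-sided, p = 0.6, adjusted 0.875). Col1a2 to Col5a1 ran from 1.16 in vehicle 2 to 1.69 in vemurafenib 3. For these 3 pairs among Col1a1, Col1a2 and Col5a1, the 6 exact 95% binomial intervals had a value in common. These intervals are wide where a library held few counts, and whether these pairs vary less than the others was not tested.

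The ratios with type III ranged more widely. Col1a1 to Col3a1 was 1.12, 0.815 and 0.956 in vehicle 1, 2 and 3, against 1.41, 1.04 and 0.783 in vemurafenib 1, 2 and 3. Both extremes were vemurafenib libraries. In vemurafenib 1, the deepest library, the interval ran from 1.27 to 1.56, above that of vemurafenib 3, from 0.655 to 0.936. The group means were 0.964 ± 0.154 and 1.08 ± 0.314 (SD, n = 3), a difference of 0.13 in mean log2 ratio (exact permutation test, two-sided, p = 0.7, adjusted 0.875). Col3a1 to Col5a1 spread likewise, from 2.07 in vemurafenib 1 to 4.47 in vemurafenib 3. Within the pool of the 5 genes, Col3a1 held 26.5% of the counts in vemurafenib 1 and 40.6% in vemurafenib 3, with the vehicle libraries at 32.3%, 39.1% and 34.4%.

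The ratio between the type V chains ranged most widely. Col5a1 to Col5a2 was 4.74, 3.08 and 1.91 in vehicle 1, 2 and 3, against 3.13, 4.0 and 2.91 in vemurafenib 1, 2 and 3. Vehicle 3 had the lowest ratio and vehicle 1 the highest, 2.48-fold apart, the widest of the 10 pairs. The difference in mean log2 ratio was 0.13 (exact permutation test, two-sided, p = 0.8, adjusted 0.889). Col5a2 also took its largest part of the pool in vehicle 3, 5.63% against 2.60% to 4.11% in the other 5 libraries. Each of the 7 pairs with Col3a1 or Col5a2 had intervals with no value in common. Over all 10 pairs the groups overlapped, the differences in mean log2 ratio ran from -0.12 to 0.33, and the exact permutation p-values ran from 0.2 to 1. Leaving out 1 library moved these differences to an extent that varied from pair to pair. Col1a1 to Col1a2 kept its sign, from -0.062 without vehicle 2 to -0.18 without vehicle 3. Col1a2 to Col5a2 went from 0.090 without vehicle 3 to 0.65 without vehicle 1, and Col1a2 to Col3a1 from 0.013 without vemurafenib 1 to 0.48 without vemurafenib 3. A p that misses the threshold does not show that the ratios were alike.

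**Figure D4:**
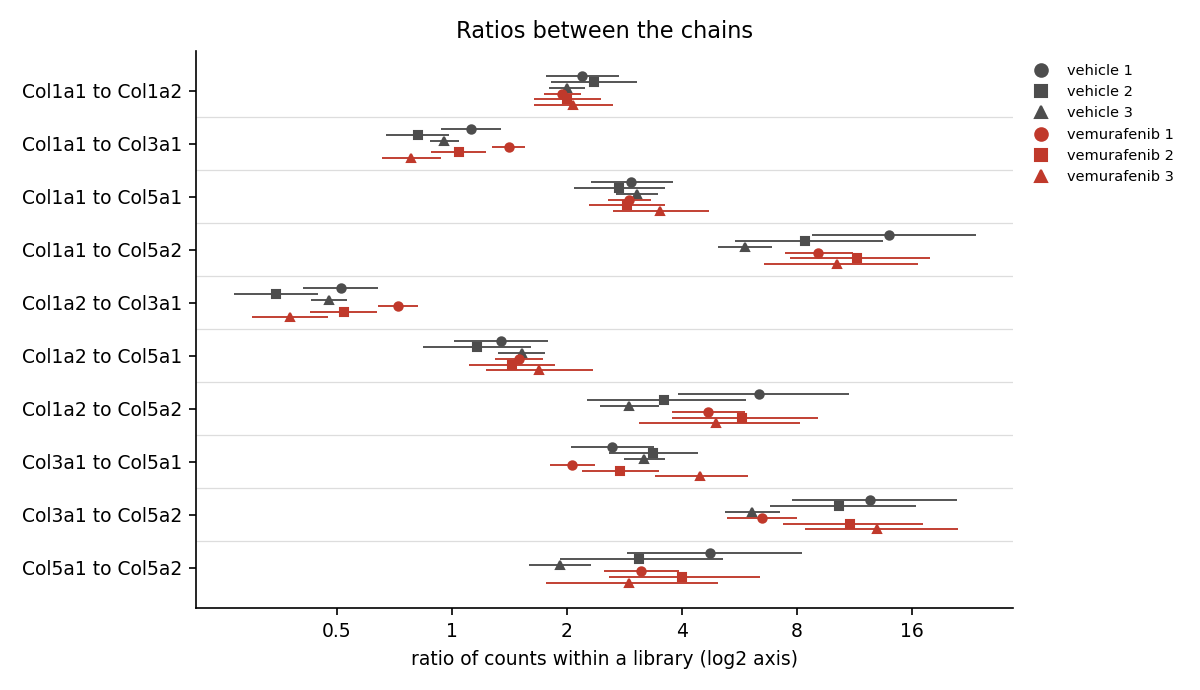
Ratio of counts between each pair of collagen chains within a library, on a log2 axis; points are libraries and horizontal lines are exact 95% binomial intervals for counting error. Col1a1 to Col1a2 stays between 1.95 and 2.35, whereas Col5a1 to Col5a2 runs from 1.91 to 4.74.

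Genes that act on fibrillar collagen were mostly too thinly counted to follow it. Among 6 other fibrillar collagen genes 2 were tested and 0 called. Col5a3, a further type V chain, had 11, 14 and 13 counts with vehicle and 91, 10 and 3 with vemurafenib, a log2 fold change of 0.26 ± 0.71 (edgeR adjusted p = 0.995). In TMM-scaled CPM these were 450, 980 and 281 with vehicle and 1180, 469 and 80.0 with vemurafenib, so the groups overlapped and vehicle 3, the highest library for Col5a1, was the lowest vehicle library here. Col27a1 had -0.80 ± 0.49 (edgeR adjusted p = 0.966), and Col2a1, the collagen of cartilage, had 0 counts. Of 20 genes for modification and folding of the chains none was tested, and the most counted was Serpinh1, the collagen chaperone HSP47, with 30 counts in all. That list ran from 0.0522% to 0.102% of counts with vehicle and from 0.0522% to 0.111% with vemurafenib.

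Of 14 genes for propeptide processing and cross-linking 2 were tested, both below 0 and neither called. Bmp1, the enzyme that removes the carboxy-terminal propeptide, had -0.48 ± 0.49, and Loxl3, of the lysyl oxidase family that cross-links collagen, had -0.11 ± 0.50. Of 15 fibril assembly partners 5 were tested, 5 lay below 0, 1 had an unadjusted p under 0.05 with edgeR and 0 were called. Their median was -0.42 beside 0.02 over all tested genes. Of all 477 tested genes 48.2% lay below 0, and 23 had an unadjusted p under 0.05 with edgeR. The partners come from the same libraries as the collagens and are no separate replicates of their pattern. Col12a1, a collagen that sits on fibril surfaces, had -0.32 ± 0.45, and Sparc, a collagen-binding matrix protein, had -0.17 ± 0.49. The summed share of that list was 0.383%, 0.388% and 0.707% in vehicle 1, 2 and 3, against 0.532%, 0.399% and 0.165% in vemurafenib 1, 2 and 3, with the same libraries at the ends as for the collagens. None of 18 genes for collagen receptors and degradation was tested; the most counted, the membrane collagenase Mmp14, had 85 counts, and the collagenase Mmp13 had 0. Of 15 counted genes of TGF-beta signalling and scars 1 was tested, the matrix protein Postn, with -1.38 ± 0.59 (edgeR adjusted p = 0.874), and it was not called.

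The genes nearest in profile to the summed collagens included 3 other matrix genes. Likeness was the root mean square difference of log2 CPM over 6 libraries after each profile was centred, so that 0 is an identical profile. It ran from 0.09 for Col1a1 to 0.34 for Col5a2 among the members themselves, which are part of the sum, and its median over 472 other tested genes was 0.73. The nearest was Hspg2 (0.17), which encodes the basement membrane proteoglycan perlecan, with a log2 fold change of -0.79 ± 0.47. Col6a2 (0.19), of the microfibrillar type VI collagen, and Col7a1 (0.21), of the anchoring fibrils below the epidermis, had -0.44 ± 0.44 and -0.88 ± 0.43. Gm44752 (0.20) and Gm29331 (0.21), both annotated as antisense genes, completed the 5. None was called, with edgeR adjusted p-values from 0.946 to 0.966. Since these 5 genes were picked for their likeness over the same libraries, fold changes like those of the collagens follow from the choice. How many of the 472 other tested genes are matrix genes was not counted.

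Markers of other skin cells also differed between libraries. Inner root sheath markers, of a layer of the growing hair follicle, took 0.749% of counts in vemurafenib 3, where the collagens were lowest, and 0.00615% in vehicle 3, where they were highest. The other 4 libraries lay between 0.0144% and 0.0493%, and of 7 such markers 6 had a count and Krt28 had 0. Tchh made up 245 of the counts in vemurafenib 3 and Krt71 23. Adipocyte markers took 0.131% in vemurafenib 3, 0.0225% in vehicle 3 and 0.0433% to 0.0609% elsewhere, with 6 of 8 counted and Adipoq and Lep at 0. Of the counts in vemurafenib 3, 41 were Lipe and 8 Plin4, with 1 for Plin1 and 0 for the other members. Epidermal markers, all 9 counted, took 0.209%, 0.352% and 0.191% in vehicle 1, 2 and 3, against 0.269%, 0.303% and 0.358% in vemurafenib 1, 2 and 3. Vehicle 2, where all 5 collagens lay above their means, was thus close to vemurafenib 3, and within the list Flg had its highest TMM-scaled CPM, 930, in vehicle 3. Fibroblast markers took 0.0738% in vehicle 3 and 0.0496% in vemurafenib 3, but were lowest in vehicle 1 at 0.0348%. The part of these cell types in the collagen values was not tested.

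**Figure D5:**
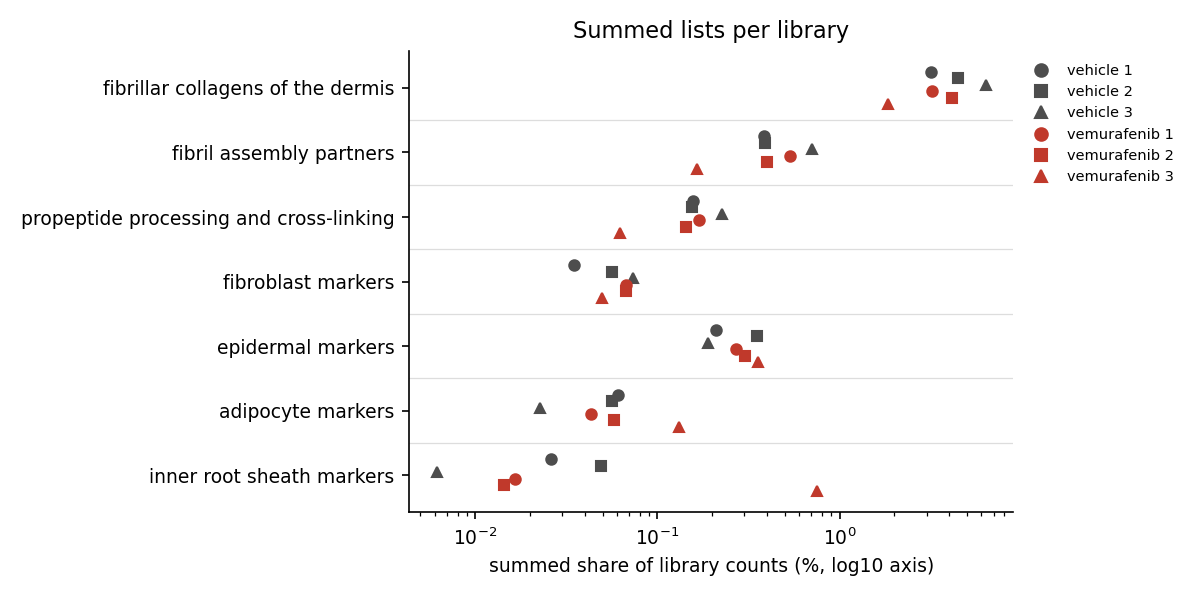
Summed share of library counts, in percent on a log10 axis, for the 5 collagen genes, 2 lists of collagen partners and 4 lists of cell type markers; points are libraries. Collagens and their assembly partners are lowest in vemurafenib 3, where inner root sheath and adipocyte markers are highest.

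The other marker lists were thinly counted. Vemurafenib 3 was the lowest library for macrophage, endothelial and Schwann cell markers, as it was for the collagens. These lists held only 93, 35 and 30 counts over all libraries, and Csf1r made up 67 of the macrophage counts. Skeletal muscle markers were lowest in vemurafenib 1 and red blood cell markers in vehicle 1. Macrophage markers took 0.0392% to 0.0471% of counts with vehicle and 0.0313% to 0.0529% with vemurafenib (7 of 8 counted, Adgre1 at 0). Endothelial markers, all 8 counted, took 0.0131% to 0.0184% and 0.00783% to 0.0191%. Skeletal muscle markers took 0.0246% to 0.0634% and 0.0166% to 0.0287%, with Acta1, Myh1 and Myh4 at 0. Schwann cell markers, with 30 counts in all, took 0.0141% to 0.0348% and 0.00261% to 0.0192%, and red blood cell markers 0.00870% to 0.0282% and 0.0178% to 0.0240%. Gm26917 and Gm42418, at the ribosomal RNA repeat, took 3.22% to 7.79% and 2.62% to 4.73%, and leaving them and the mitochondrial genes out moved no member's log2 fold change across 0.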

How the data were processed

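The 6 skin libraries of db/db mice, 3 per group, were analysed together. Raw counts for each gene symbol were deposited in 1 table; per the submitters' processing notes, HISAT2 and HTSeq were used on mm10, with versions, annotation and strand setting not given in the sources used here. In it 1 column matched no sample and was not used. Genes were kept by filterByExpr (smallest count 10, smallest total 15), scaled by TMM and tested with edgeR 4.0.16 (R 4.3.3), robust quasi-likelihood, group as the only term, Benjamini-Hochberg over all 477 genes, threshold 0.05. Each SE was obtained by dividing the log2 fold change by the root of its F statistic, and edgeR's common BCV (the relative spread between libraries beyond counting) was 0.327.

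Shares are counts over library totals, and ratios are counts over counts, without a pseudocount. Both were compared by exact permutation over libraries, two-sided. Intervals are exact binomial (Clopper-Pearson, 95%) and cover counting error within a library only. Reads carry no molecular identifiers, so copies of the same molecule may have been counted repeatedly and these intervals may be too narrow. Libraries of a group differed by more than sampling noise, with chi-square over degrees of freedom between 1.89 and 2.93. Tests were checked on simulated data. Gene positions, exon lengths and coding sequences came from GENCODE M21, in which 99.2% of symbols were found, and promoters from RefSeq (GRCm38.p6). Alternatives with DESeq2 1.42.0 and limma 3.58.1 (voom), other scalings, filters, denominators, the replicate number as a block and leaving out libraries were run. Shares and ratios were computed in Python 3.11.15 with scipy 1.17.1.

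The members and lists were chosen with earlier results of these data known. Genes named beside the members were the 2 tested genes with most counts of each list, or the most counted where none was tested, the 5 nearest in profile, and genes overlapping a member; of lists of other cell types the sums are given. Members of lists at 0, and Dcn and Lum, were named after their values were seen.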

Additional observations from a re-analysis of the deposited data

How the results depend on the processing

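The count of 0 members called held in all alternatives run. Over all genes, 0 calls became 3 with no filter beyond 1 count, 2 with at least 1 CPM in 3 libraries, 3 with at least 10 counts in total, and 0 to 2 when leaving out 1 library (2 without vemurafenib 1). These filters tested 16695, 8888 and 4697 genes and moved the median log2 fold change of all tested genes from 0.02 to 0.42, 0.22 and 0.09; the cause was not tested. With every other scaling, DESeq2 and limma-voom the members' fitted values stayed below 0. Leaving out 1 library gave Col1a2 log2 fold changes from -0.69 to 0.0070 and left the other 4 genes below 0. Vehicle 3 and vemurafenib 3 were also left out together, a choice made after seeing the data. The log2 fold changes were then 0.11 (Col1a1), 0.31 (Col1a2), -0.26 (Col3a1), 0.075 (Col5a1) and 0.15 (Col5a2), with a median of 0.11. The differences in share were 0.0313, 0.102, -0.271, 0.00068 and 0.0029 percentage points in the same order. Leaving out the extreme libraries had to shrink or turn the differences, so nothing is read from these values.

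Some of the differences in log2 ratio changed sign. Without those libraries Col1a1 to Col5a2 gave -0.086, Col3a1 to Col5a2 -0.43 and Col5a1 to Col5a2 -0.11, and with counts summed over a group Col1a1 to Col5a1 gave -0.0020. Leaving out 1 library gave -0.082 to 0.34 (Col1a1 to Col3a1), -0.0081 to 0.14 (Col1a1 to Col5a1), -0.087 to 0.54 (Col1a1 to Col5a2), -0.35 to 0.21 (Col3a1 to Col5a1), -0.22 to 0.38 (Col3a1 to Col5a2) and -0.21 to 0.45 (Col5a1 to Col5a2). It kept the sign of the other 4 pairs, among them 0.10 to 0.30 (Col1a2 to Col5a1).

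Whether the replicate numbers pair the libraries is not known. Deviations of same-numbered libraries correlated at 0.0405, -0.0802 and -0.326. Of the vehicle libraries only vehicle 1 matched its same-numbered vemurafenib library best. Libraries this shallow cannot decide the question. With the replicate block 0 genes were called, and the log2 fold changes were -0.55 (Col1a1), -0.43 (Col1a2), -0.70 (Col3a1), -0.63 (Col5a1) and -0.78 (Col5a2). Paired exact permutation cannot go below 0.25 with 3 pairs. Depth limits Col5a2 most, with 19 to 26 counts in 4 of 6 libraries.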
